A study of Mus musculus with 8 samples.

Results

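The 10 genes described here supply acetyl-CoA, build long-chain fatty acids, desaturate them or, in the case of Dbi, bind long-chain acyl-CoA. They are Acly, Acss2, Acaca, Fasn, Elovl6, Scd1, Scd2, Fads1, Fads2 and Dbi. They were chosen by name, as all probes that the array files assign to these symbols, which gave 18 of 41174 probes. Of the 18, 13 lay above background and all 10 genes kept at least 1 probe, among 13411 genes tested in all. The RNA came from LLC1 cells, a lung carcinoma line of C57BL/6 mice grown in culture with serum, 4 h after X-rays. Each dual-colour array set irradiated cells (Cy5) against untreated cells of the same line (Cy3). Cells received 2 Gy once (3 arrays), 10 Gy once (2 arrays) or 2 Gy in each of 5 fractions, called 5x2 Gy (3 arrays). The labels count 3 biological replicates a regimen, while the 8 arrays of the series hold 2 at 10 Gy. The time between fractions is not given in the sources used here. Values are log2 ratios of irradiated over untreated cells, given per array in replicate order. Means carry the SE of the limma fit, and a gene was called at a Benjamini-Hochberg adjusted p under 0.05 over all 13411 genes.

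De novo synthesis starts from cytosolic acetyl-CoA, which is carboxylated to malonyl-CoA and polymerised to palmitate. An elongase and the desaturases then turn palmitate and dietary fatty acids into longer and unsaturated chains for membranes and stored lipid. In many cells the transcription factors SREBP-1 and SREBP-2, encoded by Srebf1 and Srebf2, raise the transcription of these genes, often together with NF-Y, which binds CCAAT boxes, and Sp1, which binds GC boxes. Tumour cells commonly make much of their fatty acid themselves.

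The 8 arrays lay on 2 scanned images of 4. The 2 Gy arrays and 10 Gy replicate 1 shared image 1, and 10 Gy replicate 2 and the 5x2 Gy arrays shared image 2, so that 2 Gy and 5x2 Gy never shared an image. The 10 Gy arrays stood apart from each other, with a correlation of 0.427 over all genes. Replicate 1 correlated at 0.358 to 0.511 with every other array, and replicate 2 at 0.748 to 0.854 with the 5x2 Gy arrays of its image. The SD of the log2 ratios over all genes was 0.69 on 10 Gy replicate 1 and 0.33 to 0.46 on the other arrays. No array had the dyes exchanged, so a dye effect specific to a gene cannot be told apart from irradiation in any ratio. Between regimens such an effect drops out if all arrays carry it equally. Of the 7 markers fixed for the line, the keratins Krt8, Krt18 and Krt19, Vim and Mki67 were above background on all 8 arrays in both channels, and the epithelial Epcam and Cdh1 on none. Of 20 markers of other cell types, 9 were above background on no array in either channel (Nkx2-1, Ptprc, Adgre1, Pecam1, Adipoq, Cidec, Lep, Alb and Ttr). The macrophage marker Cd68 was above background on all 8 arrays in both channels, and the T cell marker Cd3e on 8 arrays in untreated and 3 in irradiated cells. The other 9 were above it on part of the arrays, among them Sftpb, Scgb1a1 and Plin1 on 5 and Apoa1 on 4 arrays in untreated cells. Their part in the results was not tested.

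Promoter sequences of 6 of the 10 genes were used (Acly, Acss2, Acaca, Fasn, Elovl6 and Fads2), from RefSeq on GRCm38.p6, as windows of 300 bases from 250 before to 50 after the annotated start. The windows of 3 genes that were lower after 10 Gy and after 5x2 Gy, or after 10 Gy alone (Fasn), are shown, because these genes moved in the same direction. The sterol response element bound by SREBP was searched as TCACNCCAC. The box bound by NF-Y was searched as CCAAT. The GC box was searched as GGGCGG. The E-box was searched as CACGTG. All were searched on both strands, and matches stand in capitals. Acaca is read on the plus strand of chr11:84195188-84195487, Fasn on the minus strand of chr11:120824498-120824797 and Elovl6 on the plus strand of chr3:129532136-129532435. The windows of Acaca and Fasn lie around starts inside the annotated genes, which span chr11:84129635-84401651 and chr11:120805958-120825166.
Acaca: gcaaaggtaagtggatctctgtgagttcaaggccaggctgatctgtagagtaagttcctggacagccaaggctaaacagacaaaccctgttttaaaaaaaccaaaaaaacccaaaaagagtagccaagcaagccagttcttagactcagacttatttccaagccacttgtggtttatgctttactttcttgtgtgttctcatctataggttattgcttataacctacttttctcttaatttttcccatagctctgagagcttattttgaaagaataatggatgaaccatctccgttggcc
Fasn: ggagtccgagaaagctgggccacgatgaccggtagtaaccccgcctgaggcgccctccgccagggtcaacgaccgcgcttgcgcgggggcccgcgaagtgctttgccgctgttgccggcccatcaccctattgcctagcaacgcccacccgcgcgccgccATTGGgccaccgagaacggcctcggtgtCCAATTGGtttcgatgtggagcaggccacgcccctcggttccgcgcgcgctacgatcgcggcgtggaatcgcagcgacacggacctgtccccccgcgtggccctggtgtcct
Elovl6: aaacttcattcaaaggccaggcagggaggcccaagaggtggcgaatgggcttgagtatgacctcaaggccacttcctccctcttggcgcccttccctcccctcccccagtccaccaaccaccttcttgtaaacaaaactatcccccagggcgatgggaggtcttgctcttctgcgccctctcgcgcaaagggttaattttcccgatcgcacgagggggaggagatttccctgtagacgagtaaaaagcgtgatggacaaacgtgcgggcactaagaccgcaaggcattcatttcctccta
The Fasn window held 3 matches to CCAAT, 2 of them overlapping on opposite strands, while those of Acaca and Elovl6 held none of the searched letters. Over the 6 genes, CCAAT was found in 3 (Acly, Acss2 and Fasn) and in 37.4% of the 32851 promoters of the table. GGGCGG was found in Acly, Acss2 and Fads2 and in 35.7% of promoters. TCACNCCAC and CACGTG were found in none of the 6 genes, and in 1.24% and 7.15% of promoters. A match describes letters and is no measured binding. Scd1, Scd2 and Fads1 had no entry.

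After 10 Gy, 7 of the 10 genes were lower than in untreated cells and none was higher, with a median log2 ratio of -0.64. All 10 means lay below 0. In bulk RNA, fewer cells that express a gene and less RNA per cell cannot be told apart. Over all genes, 28.2% were called after 10 Gy (15.8% lower and 12.4% higher) and the median was -0.06. After 5x2 Gy, 5 genes were lower and none higher, with a median of -0.51 and again all 10 means below 0, where 41.0% of all genes were called (23.4% lower, 17.6% higher) at a median of -0.02. After 2 Gy, 1 gene was lower (Acaca) and 1 higher (Dbi), with a median of -0.06, where 16.9% of all genes were called (7.93% lower, 8.99% higher) and the median over all genes lay within 0.01 of 0. The counts for the 10 genes after leaving out 1 array in turn were 1 to 6 for 2 Gy, 6 to 8 for 10 Gy and 3 to 6 for 5x2 Gy. The 6 for 2 Gy came without 10 Gy replicate 1 or 2, when Fasn, Elovl6, Scd1 and Fads2 were called as well, with their 2 Gy means as before, and 40.2% of all genes were called. The correlation of arrays on 1 image, beyond the regimen means, was estimated at 0.697. Only 10 Gy lay on both images, so this estimate depends on the difference between its arrays. On image 1, the ratios of 10 Gy replicate 1 correlated at 0.390 to 0.511 with those of the 2 Gy arrays over all genes. With the image as a random block at that correlation, 0 of the 10 genes were called after 2 Gy, 4 after 10 Gy (Acaca, Elovl6, Scd1 and Scd2) and 3 after 5x2 Gy (Elovl6, Scd1 and Scd2), and of all genes 0.157%, 10.9% and 6.09%. The SE behind the 10 Gy calls is pooled over all regimens. For Acaca, Fasn, Fads1 and Dbi, the arrays of each other regimen had a larger SD than the 10 Gy pair. For Elovl6, Scd1 and Scd2, the 10 Gy pair had the largest SD. With the 10 Gy arrays alone in the fit, 3 of the 10 genes were called (Elovl6, Scd1 and Scd2) and 2.24% of all genes.

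**Figure D1:**
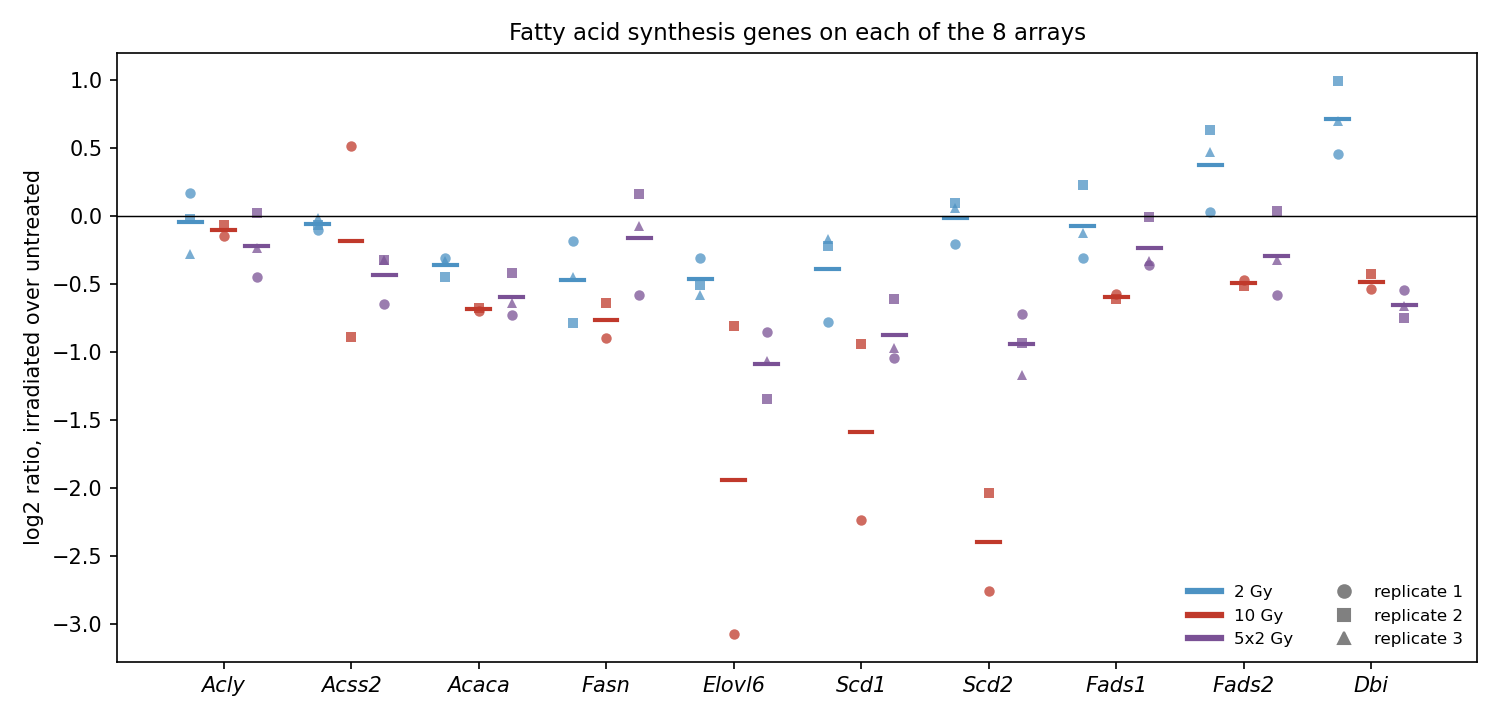
Log2 ratios of irradiated over untreated cells for the 10 genes, by regimen (colour) and replicate (symbol), with the mean of each regimen as a bar. Scd2 lies at -2.76 and -2.04 on the 10 Gy arrays, below every other array, and Dbi lies above 0 on the 3 arrays of 2 Gy only.

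Both genes that supply acetyl-CoA missed the threshold in every regimen in the fit of all 8 arrays without a block. Acly encodes ATP citrate lyase, which cleaves citrate in the cytosol. Its log2 ratios were 0.18, -0.02 and -0.28 on the 2 Gy arrays, -0.15 and -0.06 on the 10 Gy arrays and -0.45, 0.03 and -0.23 on the 5x2 Gy arrays. The regimens overlapped and no mean was farther from 0 than the -0.22 ± 0.12 of 5x2 Gy (n = 3, limma adjusted p = 0.16). Acss2 encodes the cytosolic acetyl-CoA synthetase, which uses acetate. It had -0.10, -0.06 and -0.01 after 2 Gy, 0.52 and -0.89 after 10 Gy, and -0.65, -0.32 and -0.32 after 5x2 Gy. The 10 Gy arrays thus lay on opposite sides of 0, and the other probe above background split them the same way, at 0.26 and -0.85. The mean of -0.18 ± 0.25 for 10 Gy (limma adjusted p = 0.62) became -0.89 without replicate 1 and 0.52 without replicate 2, each called, in opposite directions. The Acss2 mean for 5x2 Gy was -0.43 ± 0.21 (n = 3, limma adjusted p = 0.13), with an SE pooled over all regimens. With the 5x2 Gy arrays alone in the fit it was -0.43 ± 0.09 and called lower (limma adjusted p = 0.0041). With the image as a fixed block the 2 Gy value of Acss2 was -0.76 ± 0.13, called lower (limma adjusted p = 0.002). The Acss2 signal of irradiated cells was above background on 1 of 2 arrays of 10 Gy and 2 of 3 of 5x2 Gy. That of untreated cells was above it on every array.

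Acaca encodes the acetyl-CoA carboxylase that makes malonyl-CoA and commits carbon to synthesis. It was the only one of the 10 genes called lower in all 3 regimens, though others also had means below 0 in each. Its ratios were -0.30, -0.45 and -0.33 after 2 Gy, -0.70 and -0.67 after 10 Gy, and -0.72, -0.41 and -0.64 after 5x2 Gy. Every array was below 0, and the 10 Gy arrays lay below those of 2 Gy and within the range of 5x2 Gy. The means were -0.36 ± 0.09 after 2 Gy (n = 3, limma adjusted p = 0.028), -0.68 ± 0.11 after 10 Gy (n = 2, limma adjusted p = 0.0024) and -0.59 ± 0.09 after 5x2 Gy (n = 3, limma adjusted p = 0.0013). The 2 Gy call ended without 2 Gy replicate 1, 2 or 3 (-0.39, -0.31 and -0.38) and without 5x2 Gy replicate 3, with the mean as before. It also ended with median centring (-0.23), with the mean over both probes above background (-0.19) and with the image as a fixed or random block (-0.35 in both). With the replicate number as a block the 2 Gy call ended too, with the mean as before. The mean over both probes was -0.42 after 10 Gy, still called, and the 5x2 Gy call ended with the random block (-0.60). A dimmer second probe of Acaca averaged -0.03, -0.15 and -0.35 after 2 Gy, 10 Gy and 5x2 Gy. On the 10 Gy arrays it had 0.18 and -0.49. Its ratios lie near the background limit. In irradiated cells this probe was above background on 1 of 3 arrays of 2 Gy, 1 of 2 of 10 Gy and 0 of 3 of 5x2 Gy. In untreated cells it was above it on all arrays of 2 Gy and 10 Gy and 1 of 3 of 5x2 Gy.

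Fasn encodes fatty acid synthase, the enzyme that builds palmitate. The brighter probe had ratios of -0.18, -0.79 and -0.44 after 2 Gy, -0.90 and -0.63 after 10 Gy, and -0.58, 0.16 and -0.07 after 5x2 Gy. It was lower after 10 Gy, by -0.77 ± 0.19 (1.70-fold, n = 2, limma adjusted p = 0.016), while the 5x2 Gy mean was -0.16 ± 0.15 (limma adjusted p = 0.43) and that of 2 Gy was -0.47 ± 0.15 (limma adjusted p = 0.065). Without 10 Gy replicate 1 the 10 Gy value was -0.63 and the call ended. The second Fasn probe did not show the drop after 10 Gy. It had 0.01 and -0.21 on those arrays, averaged -0.10 there, and averaged -0.31 after 2 Gy and 0.18 after 5x2 Gy. Under median centring, which replaces the loess step, the brighter probe was at -0.18 after 10 Gy and not called. The mean over both probes was -0.43 after 10 Gy and called, and the call of the brighter probe ended with the image as a random block and with the 10 Gy arrays alone, with the mean as before.

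**Figure D2:**
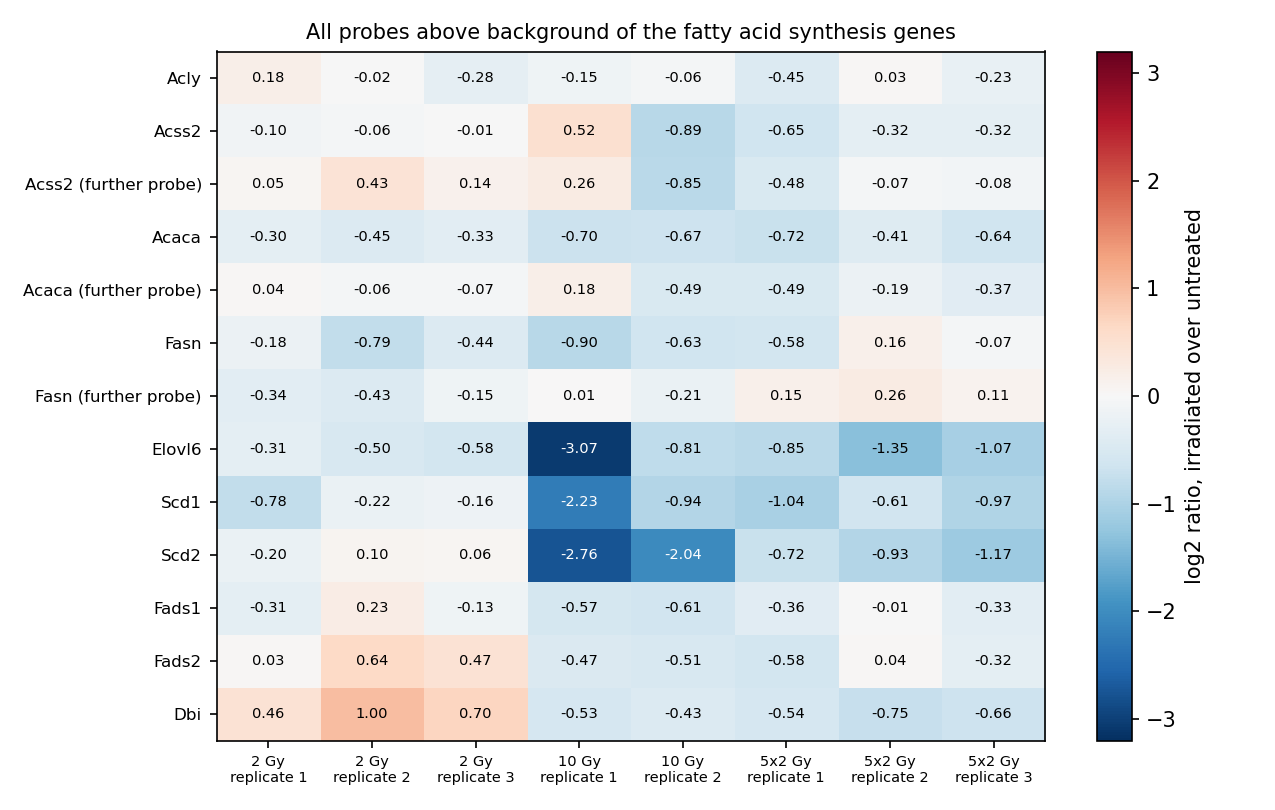
Log2 ratios of irradiated over untreated cells for the 13 probes above background (rows) on the 8 arrays (columns), blue where lower and red where higher in irradiated cells. The further probes of Acaca (0.18 and -0.49) and Fasn (0.01 and -0.21) are nearer to 0 after 10 Gy than the brightest probes of these genes, and Elovl6 and Scd1 are lowest on 10 Gy replicate 1.

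Elovl6, the elongase that extends palmitate to stearate, was lower after both regimens that sum to 10 Gy. Its ratios were -0.31, -0.50 and -0.58 after 2 Gy, -3.07 and -0.81 after 10 Gy, and -0.85, -1.35 and -1.07 after 5x2 Gy. All 8 arrays were below 0, and 10 Gy replicate 1 minus replicate 2 was -2.27. The means were -0.46 ± 0.32 after 2 Gy (limma adjusted p = 0.34), -1.94 ± 0.39 after 10 Gy (3.84-fold, limma adjusted p = 0.0061) and -1.09 ± 0.32 after 5x2 Gy (2.12-fold, limma adjusted p = 0.022). The 10 Gy value was -0.81 without replicate 1 and -3.07 without replicate 2, called in both cases, where the 1 array left was assumed to vary like those of the other regimens. The 5x2 Gy call ended without 5x2 Gy replicate 1, 2 or 3, at -1.21, -0.96 and -1.10. With the image as a fixed block the values were 0.67 after 2 Gy, called higher, and -2.22 after 5x2 Gy, and with it as a random block the 5x2 Gy value was -1.88.

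Scd1 and Scd2 encode stearoyl-CoA desaturases, which introduce the double bond of oleate and palmitoleate. Scd1 had ratios of -0.78, -0.22 and -0.16 after 2 Gy, -2.23 and -0.94 after 10 Gy, and -1.04, -0.61 and -0.97 after 5x2 Gy. The 10 Gy arrays lay below those of 2 Gy, and the 5x2 Gy arrays overlapped both. Its means were -0.39 ± 0.22 after 2 Gy (limma adjusted p = 0.24), -1.59 ± 0.27 after 10 Gy (3.00-fold, limma adjusted p = 0.0027) and -0.87 ± 0.22 after 5x2 Gy (1.83-fold, limma adjusted p = 0.011). The 10 Gy value was -0.94 without replicate 1 and -2.23 without replicate 2, called in both cases under the same assumption for the 1 array left. The 5x2 Gy call ended without 5x2 Gy replicate 1 (-0.79) or 3 (-0.83), and the value was -1.52 with the image as a fixed and -1.32 as a random block, called in both.

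Scd2 had the largest fold of the 10 genes in the 10 Gy mean, while Elovl6 had the larger one after 5x2 Gy and without 10 Gy replicate 2. Its ratios were -0.20, 0.10 and 0.06 after 2 Gy, -2.76 and -2.04 after 10 Gy, and -0.72, -0.93 and -1.17 after 5x2 Gy. The regimens did not overlap: 2 Gy lay around 0, 5x2 Gy below it and 10 Gy lowest. The log2 signal of irradiated cells was 12.21 and 12.41 on the 10 Gy arrays, against 14.97 and 14.45 for untreated cells. The means were -0.01 ± 0.14 after 2 Gy (limma adjusted p = 0.96), -2.40 ± 0.18 after 10 Gy (5.27-fold, n = 2, limma adjusted p = 0.00019) and -0.94 ± 0.14 after 5x2 Gy (1.92-fold, n = 3, limma adjusted p = 0.0012). With median centring the 2 Gy value was 0.52 and called higher, and those of 10 Gy and 5x2 Gy were -1.93 and -0.82, both still lower. Whether the probes of the related Scd genes also take up each other's transcripts was not tested.

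Fads1 and Fads2 encode the delta-5 and delta-6 desaturases of polyunsaturated fatty acid synthesis. Fads1 had -0.31, 0.23 and -0.13 after 2 Gy, -0.57 and -0.61 after 10 Gy, and -0.36, -0.01 and -0.33 after 5x2 Gy. Only the 10 Gy mean of -0.59 ± 0.15 was called among the 3 regimens (1.51-fold, n = 2, limma adjusted p = 0.015), with -0.07 ± 0.12 after 2 Gy and -0.23 ± 0.12 after 5x2 Gy. The call ended with the image as a random block and with the 10 Gy arrays alone in the fit, with the mean as before. Fads2 had 0.03, 0.64 and 0.47 after 2 Gy, -0.47 and -0.51 after 10 Gy, and -0.58, 0.04 and -0.32 after 5x2 Gy. None of its means was called. They were 0.38 ± 0.14 after 2 Gy (limma adjusted p = 0.092), -0.49 ± 0.17 after 10 Gy (limma adjusted p = 0.059) and -0.29 ± 0.14 after 5x2 Gy (limma adjusted p = 0.13). With median centring the 2 Gy value was 0.53 and called higher. It was also called higher with the 2 Gy arrays alone in the fit, and the 10 Gy value was called lower with the image as a fixed block. The 2 Gy value was called without 10 Gy replicate 1 or 2, and the 10 Gy value without 2 Gy replicate 1, with the means as before.

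Dbi encodes the acyl-CoA binding protein, which carries long-chain acyl-CoA in the cytosol. Among the means of the 10 genes, its value after 2 Gy was the only one called higher. Its ratios were 0.46, 1.00 and 0.70 after 2 Gy, -0.53 and -0.43 after 10 Gy, and -0.54, -0.75 and -0.66 after 5x2 Gy. The 2 Gy arrays were all above 0 and the other 5 arrays all below it. The means were 0.72 ± 0.11 after 2 Gy (1.65-fold higher, n = 3, limma adjusted p = 0.0037), -0.48 ± 0.14 after 10 Gy (1.39-fold lower, n = 2, limma adjusted p = 0.027) and -0.65 ± 0.11 after 5x2 Gy (1.57-fold lower, n = 3, limma adjusted p = 0.002). The direction after 10 Gy rested on the scaling. With median centring the values were 1.28 after 2 Gy, 0.14 after 10 Gy and -0.51 after 5x2 Gy, and the 10 Gy value was not called. The 10 Gy call also ended without 10 Gy replicate 1 (-0.43), and without 2 Gy replicate 3 or 5x2 Gy replicate 3, with the mean as before. With the image as a random block all 3 Dbi calls ended, at 0.76 after 2 Gy, -0.48 after 10 Gy and -0.69 after 5x2 Gy.

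The single doses were then compared with each other. After 10 Gy all 10 genes had lower mean ratios than after 2 Gy, with a median difference of -0.70 against -0.04 over all genes, and 2 were called (2.56% of all genes were, 1.52% lower and 1.04% higher). Scd2 was lower by -2.39 ± 0.23 (5.23-fold, limma adjusted p = 0.012) and Dbi by -1.20 ± 0.17 (2.30-fold, limma adjusted p = 0.022). The ratios of 10 Gy and 2 Gy arrays overlapped for Acly, Acss2 and Fasn and not for the other members. With so few arrays this is a weak criterion, and it was not set against the share over all genes. The differences of Elovl6 (-1.48 ± 0.50), Scd1 (-1.20 ± 0.34), Fads2 (-0.87 ± 0.22) and Fads1 (-0.52 ± 0.19) were not called. The Scd2 call ended without 2 Gy replicate 1, 2 or 3, at -2.48, -2.33 and -2.35, and the Dbi call without any 1 array of 2 Gy (-1.33, -1.06 and -1.21) or of 5x2 Gy. Without 10 Gy replicate 1, 4 of the 10 genes and 11.2% of all genes were called, and without replicate 2, 6 of the 10 and 32.1% of all. With the image as a random block, 5 of the 10 and 21.7% of all genes were called, with Elovl6 at -2.27, Scd1 at -1.65 and Fads2 at -0.85. Within image 1, where 10 Gy replicate 1 stood beside the 2 Gy arrays, 9 of the 10 genes were lower on the 10 Gy array. The median difference there was -0.68, with Scd2 at -2.75, Elovl6 at -2.61, Scd1 at -1.85, Dbi at -1.25 and Acss2 as the exception at 0.58.

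Fractionation was compared with the single dose of the same sum. The mean ratio after 5x2 Gy lay above that after 10 Gy for 7 of the 10 genes, with a median difference of 0.28 against 0.01 over all genes. None of the 10 was called in limma, and 0% of all genes were. At an unadjusted p under 0.05 there were 2 of the 10 genes and 2241 of 13411. These 2 were Scd2 (1.46 ± 0.23, limma adjusted p = 0.17) and Fasn (0.60 ± 0.24, limma adjusted p = 0.27). With median centring in place of loess, the difference was 1.11 ± 0.17 for Scd2 and 0.15 ± 0.28 for Fasn, neither called. The 5x2 Gy and 10 Gy arrays did not overlap for Scd2 and Fasn, nor for Fads1 and Dbi. This too was not set against the share over all genes. Among genes other than Scd2 and Fasn, the 95% intervals reached from -0.27 to 1.98 for Elovl6 and from -0.06 to 1.48 for Scd1. They reached from -0.23 to 0.42 for Acaca and from -0.56 to 0.22 for Dbi. A missed threshold does not show that the regimens acted alike. Within image 2, 5x2 Gy minus 10 Gy replicate 2 was 1.10 for Scd2, 0.47 for Fasn, 0.07 for Scd1 and -0.28 for Elovl6, with 7 of 10 above 0 and a median of 0.15. Without 10 Gy replicate 2, 4 of the 10 genes were called: Scd2 (1.82), Elovl6 (1.99) and Scd1 (1.36) higher and Acss2 (-0.95) lower after 5x2 Gy, where 43.2% of all genes were called.

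Between 5 fractions and 1 fraction of 2 Gy, the mean ratio was lower after 5x2 Gy for 9 of the 10 genes, with a median difference of -0.43 against -0.02 over all genes. Dbi was the gene called, at -1.37 ± 0.16 (2.58-fold lower, limma adjusted p = 0.024), where 1.30% of all genes were called (0.925% lower, 0.380% higher). Scd2 (-0.93 ± 0.20, limma adjusted p = 0.058) and Fads2 (-0.67 ± 0.20, limma adjusted p = 0.09) missed the threshold. The Dbi call ended without any 1 of the 2 Gy arrays (-1.50, -1.23 and -1.38) or 5x2 Gy arrays (-1.42, -1.32 and -1.37). Without 10 Gy replicate 1, and likewise without replicate 2, 5 genes were called, namely Dbi and, with their means as before, Acss2, Elovl6, Scd2 and Fads2, and 29.9% of all genes. No image held both regimens, and the 10 Gy arrays are the link between images. With the image as a fixed block, 5 of the 10 genes and 17.7% of all were called, with Elovl6 at -2.89, Scd1 at -1.78, Scd2 at -1.65, Dbi at -1.47 and Acss2, with its sign turned, at 1.04. With it as a random block, Elovl6 (-2.20), Scd2 (-1.43) and Dbi (-1.44) were called, and 1.76% of all genes.

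**Figure D3:**
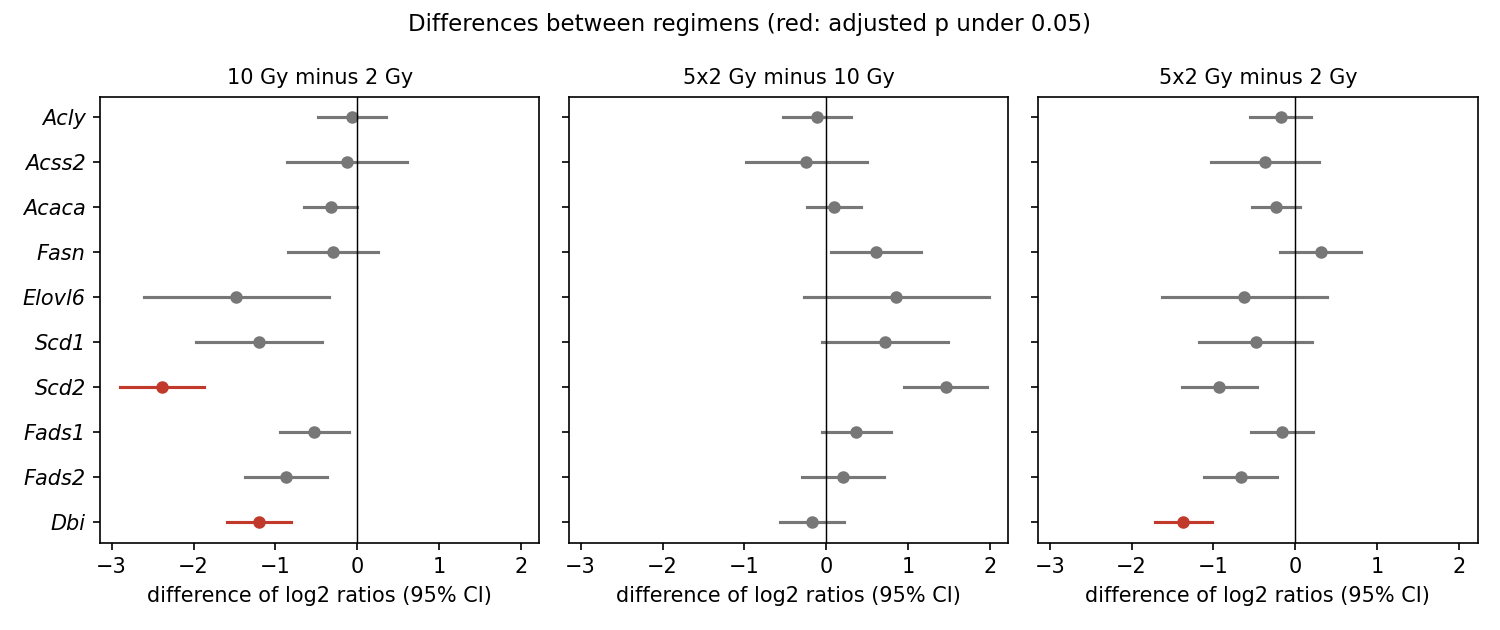
Differences of mean log2 ratios between regimens for the 10 genes, with 95% intervals from limma, red where the adjusted p is under 0.05. Scd2 (-2.39) and Dbi (-1.20) are the genes called between 10 Gy and 2 Gy, Dbi (-1.37) between 5x2 Gy and 2 Gy, and none between 5x2 Gy and 10 Gy.

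The regulators of the pathway formed the first of 6 lists of other lipid genes. Of 22 measured of 24 listed, 6 were lower and 2 higher after 10 Gy (median -0.23). After 5x2 Gy 6 were lower and 2 higher (median -0.12), and after 2 Gy 2 were lower and 1 higher (median -0.07). Over all genes, 28.2% were called after 10 Gy (15.8% lower), 41.0% after 5x2 Gy (23.4% lower) and 16.9% after 2 Gy (7.93% lower). Srebf2, which encodes SREBP-2, was at -1.59 ± 0.15 after 10 Gy (limma adjusted p = 0.00032) and -0.74 ± 0.12 after 5x2 Gy. Srebf1, which encodes SREBP-1, was at -1.05 ± 0.17 after 10 Gy (limma adjusted p = 0.0022). Both were lower after 10 Gy than after 2 Gy, by -1.47 for Srebf2 and -1.08 for Srebf1, the 2 regulators called in that comparison (limma adjusted p of 0.022 and 0.041). Both calls ended without any 1 of the 2 Gy arrays, since 0 of all genes were called then. The mean over the probes of Srebf2 was -0.74 after 10 Gy and -0.36 after 5x2 Gy, called in both. Insig1, a target of SREBP that retains it in the endoplasmic reticulum, was at -0.35 ± 0.10 after 2 Gy, -1.07 ± 0.13 after 10 Gy and -0.77 ± 0.10 after 5x2 Gy, called in each. Nr1h2, which encodes the oxysterol receptor LXR-beta, rose in each, by 0.39 ± 0.10, 0.65 ± 0.12 and 0.85 ± 0.10. The calls of Insig1 and Nr1h2 after 2 Gy ended without any 1 of the 2 Gy arrays, at -0.42 to -0.26 and 0.34 to 0.44, that of Insig1 also without any 1 of the 5x2 Gy arrays and that of Nr1h2 without 5x2 Gy replicate 3. Both also ended with the image as a random block, as did the 5x2 Gy calls of Insig1 and Srebf2, and with median centring Insig1 was at -0.18 after 2 Gy and not called.

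Among genes that supply citrate, malonyl-CoA and NADPH, 9 of 10 were measured. After 2 Gy 2 were higher and none lower, after 10 Gy 3 were higher and 1 lower, and after 5x2 Gy 4 were higher and none lower, with medians of 0.14, 0.15 and 0.23. Over all genes the shares called higher were 8.99%, 12.4% and 17.6%. Leaving out 1 array in turn gave 0 to 5 called genes of this list for 2 Gy and 3 to 5 for 10 Gy and for 5x2 Gy. Mlycd, malonyl-CoA decarboxylase, which breaks malonyl-CoA down, was called higher in each regimen, at 0.46 ± 0.10, 0.61 ± 0.12 and 0.76 ± 0.10, and lost the 2 Gy call without any 1 of the 2 Gy arrays (0.43 to 0.49) and with the image as a fixed (0.27) or random (0.32) block. Slc25a1, the mitochondrial citrate carrier, was the one called lower after 10 Gy (-0.47 ± 0.11, limma adjusted p = 0.014), a call that ended with median centring (-0.24) and with the image as a random block. Of 12 measured of 18 other elongation and desaturation enzymes, 3 were lower after 2 Gy and 4 lower and 3 higher after 10 Gy. After 5x2 Gy 4 were lower and 2 higher. The medians were -0.15, -0.09 and -0.06 after 2 Gy, 10 Gy and 5x2 Gy, where 16.9%, 28.2% and 41.0% of all genes were called. Elovl5, an elongase of polyunsaturated chains, was at -1.0 ± 0.19 after 10 Gy, at -0.52 without replicate 1 and -1.48 without replicate 2. Hacd1, a dehydratase of the elongation cycle, was lower in each regimen, at -0.55 ± 0.10, -0.58 ± 0.13 and -0.80 ± 0.10, and lost the 2 Gy call without 2 Gy replicate 1 (-0.47) or 2 (-0.55). With median centring Hacd1 was at -0.18 after 2 Gy and -0.24 after 10 Gy, neither called, and both calls ended with the image as a random block.

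All 18 acyl-CoA synthetases and enzymes of glycerolipid synthesis were measured. After 2 Gy 1 was lower and 2 higher, after 10 Gy 4 were lower and 2 higher, and after 5x2 Gy 3 were lower and 2 higher. The medians were -0.01, -0.20 and -0.16. Of all genes, 16.9%, 28.2% and 41.0% were called after 2 Gy, 10 Gy and 5x2 Gy. Lpin1, a phosphatidate phosphatase of triglyceride synthesis, rose in each regimen, by 1.17 ± 0.18, 2.22 ± 0.22 and 1.69 ± 0.18. After 2 Gy it was at 0.70 with the image as a fixed block, and at 0.84 and not called with it as a random block. Acsl3, an acyl-CoA synthetase, was at -1.35 ± 0.20 after 10 Gy and Acsl4, which prefers arachidonate, at -1.32 ± 0.33. Without 10 Gy replicate 1, Acsl3 was at -0.90 and still called, and Acsl4 was at -0.40 and not called. Without replicate 2, 10 genes of that list were called in place of 6. Of 8 measured of 9 binding proteins related to Dbi or to fatty acid binding, 1 was higher after 2 Gy, 1 higher after 10 Gy, and 2 higher and 2 lower after 5x2 Gy. Acbd5, a peroxisomal acyl-CoA binding protein, was the one higher in each, at 0.61 ± 0.16, 0.81 ± 0.20 and 0.98 ± 0.16. It lost its 10 Gy call without 10 Gy replicate 2 (0.45) and its 2 Gy call without any 1 of the 2 Gy arrays (0.52 to 0.71) or without 5x2 Gy replicate 1. All 3 of its calls ended with the image as a random block.

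Of 19 measured of 20 genes of mitochondrial fatty acid oxidation, 4 were higher and none lower after 2 Gy, 4 higher and 1 lower after 10 Gy and 5 higher and 2 lower after 5x2 Gy. Their medians were 0.11, 0.14 and 0.08. Of all genes, 16.9% were called after 2 Gy (8.99% higher), 28.2% after 10 Gy (12.4% higher) and 41.0% after 5x2 Gy (17.6% higher). Cpt1c, a carnitine palmitoyltransferase of the endoplasmic reticulum, had the largest values, at 1.5 ± 0.12, 1.77 ± 0.14 and 1.43 ± 0.12 (limma adjusted p of 0.00026, 0.00023 and 0.00014), and it was called in each with the image as a random block. Slc25a20, the carnitine-acylcarnitine carrier, rose by 0.83 ± 0.15 after 10 Gy and was at 0.53 without replicate 1. Leaving out 1 array in turn gave 1 to 8 called genes of this list for 2 Gy, 5 to 8 for 10 Gy and 2 to 9 for 5x2 Gy. For the regulators it gave 0 to 5, 6 to 11 and 4 to 13.

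**Figure D4:**
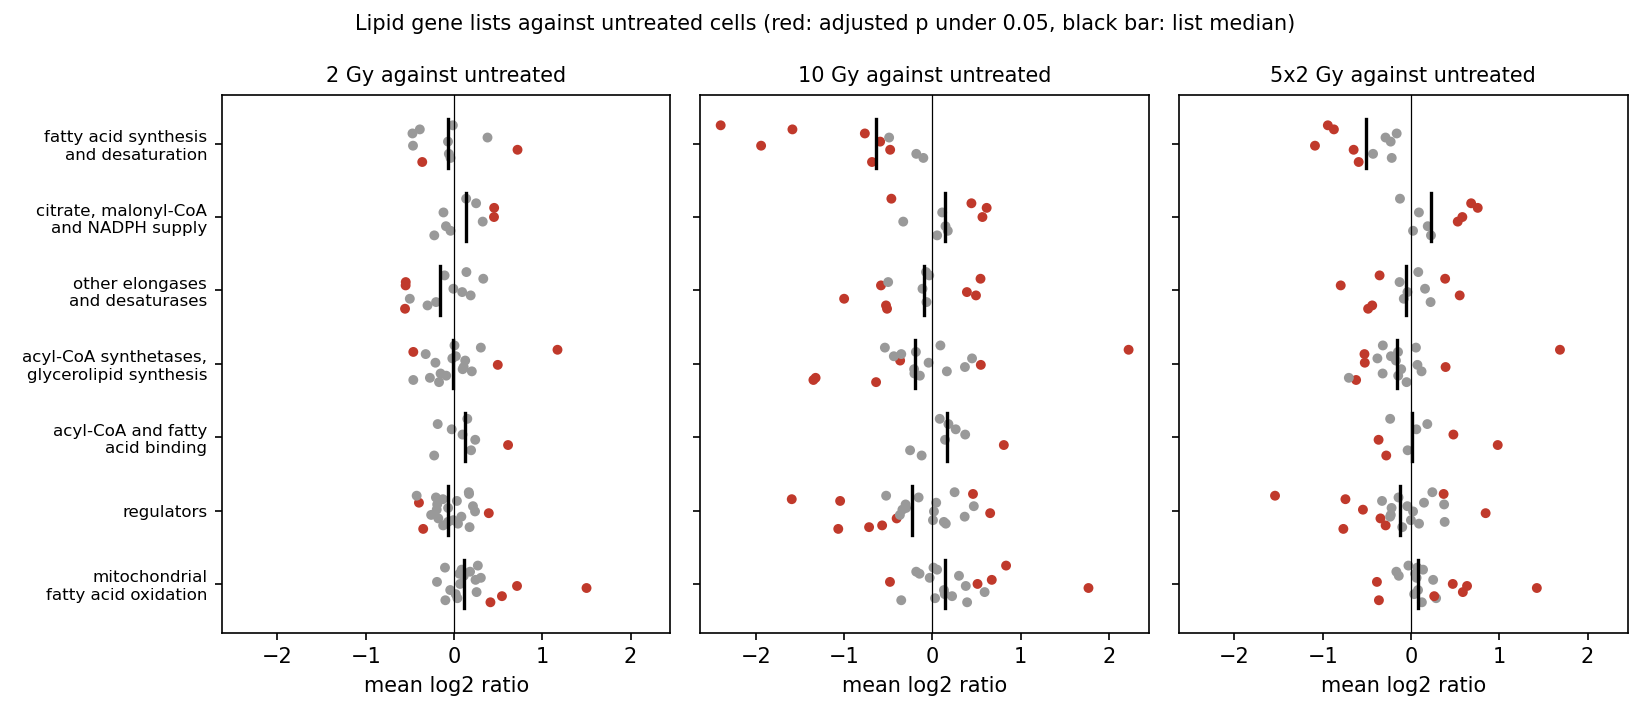
Mean log2 ratios of the 10 genes (top row) and of 6 other lists of lipid genes after 2 Gy, 10 Gy and 5x2 Gy, with a dot for each gene, red where called, and a black bar at the list median. The median of the 10 genes is -0.06, -0.64 and -0.51, and that of the oxidation list is 0.11, 0.14 and 0.08.

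Across the 8 arrays, which share images and regimens, the members differed in how they followed the rest of the set. The Pearson correlation of a gene with the mean of the other 9 was 0.91 for Scd2, 0.86 for Scd1, 0.85 for Fads2, 0.84 for Acaca, 0.78 for Fads1, 0.72 for Dbi and 0.67 for Elovl6. It was 0.26 for Acly, 0.19 for Fasn and -0.10 for Acss2. Among all other tested genes, Tead1 (0.986), Hoxd10 (0.985), Anapc1 (0.984) and Acvr1b (0.983) were among those with the highest correlation with the mean of the 10 over the 8 arrays.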

How the data were processed

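Per the labels, every array held irradiated LLC1 cells in Cy5 and untreated cells in Cy3. Per the file headers, the deposited scanner files hold linear spot intensity from ImaGene 9.0, with no background column. The deposited series matrix holds log2 ratios, an alternative here. Mean signals were corrected with normexp (offset 50), normalized by loess within arrays in limma 3.58.1 (R 4.3.3), and averaged over the spots of a probe. Probes were kept above the median of 153 negative controls plus 2.6 robust SD in 1 channel on 2 arrays, and the brightest kept probe stood for a gene. Across arrays and channels, 34.7% to 49.1% of probes exceeded background. Precision is limited by the small number of arrays. Spots flagged by the program, among them bright Dbi, Scd2 and Fasn spots, were kept, since the meaning of the flags is not given. All 8 arrays entered a limma fit with a mean for each regimen and eBayes, so the 10 Gy pair contributes to every SE. Log2 signals were scaled between arrays (Aquantile). The fit was tested on simulated data. The members and lists were chosen with earlier results of these data known. All 10 members were named, and of each other list up to 4 genes with the smallest p in each comparison with untreated cells, of which those described are a part, and the 5 genes of highest correlation with the members. Of these, 1 gene is not reported here, nor is 1 member's promoter. The alternatives were background correction, scaling, the series matrix, filter, probe rule, image or replicate number as a block, and fewer arrays. Those for the other lists were chosen after seeing the data.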

Additional observations from a re-analysis of the deposited data

Results flagged for a closer look

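The signal of untreated cells on the 8 arrays was tested for a single array far from the rest in each of the 10 genes. In 3 genes the normalized value of 10 Gy replicate 1 lay farther above the other 7 arrays than Dixon's 95% critical value allows. The log2 signal of untreated cells on that array was 15.04 for Fasn, against 13.88 to 14.42 on the others. It was 14.97 for Scd2, against 14.09 to 14.45, and 15.15 for Dbi, where the highest of the others was 14.54. Chance gives such a result in about 1 of 20 tests, and the 3 genes are bright and share the array. Before normalization the mean signals of untreated cells on that array lay within the range of the others, at 18985 for Fasn (14455 to 23500), 24996 for Scd2 (15323 to 28140) and 18174 for Dbi (12038 to 27778). The normalized signal of untreated cells was computed from the normalized ratio and the scaled mean intensity of both channels. The signal and the ratio of an array are thus linked by construction, and the flagged signal is no separate measure of the untreated cells. The ratio for Scd2 was -2.76 on this array and -2.04 on 10 Gy replicate 2. What raised the normalized signals was not tested.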

How the results depend on the processing

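No background correction, the series matrix values and the mean over probes kept the count of called members within 1.5 times in all 6 comparisons. The number of genes called in the whole fit moved more. After 2 Gy it was 2270, and 3610 with median centring, 4464 with the image as a fixed block, 21 with it as a random block, 1418 with the replicate block and 4819 with the 2 Gy arrays alone (members 2, and 0 with the random block, 1 with the replicate block and 6 with these arrays alone). After 10 Gy it was 3785, and 6524, 1464, 2274 and 300 under the fixed block, the random block, the replicate block and these arrays alone (members 7, and 4 with the random block and 3 alone). After 5x2 Gy it was 5492, and 8451 without the filter and 817 with the random block (members 5, and 3 with the random block). For 10 Gy against 2 Gy it was 343, and 4302, 2905 and 0 under the fixed, random and replicate block (members 2, and 6, 5 and 0), with 2076 at an unadjusted p under 0.05 under the last. For 5x2 Gy against 2 Gy it was 175, and 749 with median centring, 2371 with the fixed block and 0 with the replicate block, with 2822 unadjusted (members 1, and 2, 5 and 0, and 3 with the random block). Leaving out 1 array gave 408 to 5390 genes and 1 to 6 members for 2 Gy, 2916 to 6081 and 6 to 8 for 10 Gy, 3010 to 7985 and 3 to 6 for 5x2 Gy, 0 to 4302 and 0 to 6 for 10 Gy against 2 Gy, 0 to 5788 and 0 to 4 for 5x2 Gy against 10 Gy, and 0 to 4012 and 0 to 5 for 5x2 Gy against 2 Gy. Median centring gave 2970 genes higher and 640 lower after 2 Gy, against 1206 and 1064, with the median of all genes at 0.13. Signs turned in Scd2 after 2 Gy (0.52) and Dbi after 10 Gy (0.14) with median centring, in Elovl6 after 2 Gy (0.67) with the fixed block, and in Acss2 after 10 Gy without 10 Gy replicate 2 (0.52), in 10 Gy against 2 Gy with the fixed block or without that array (0.58) and in 5x2 Gy against 2 Gy with the fixed block (1.04). Of these values all but that of Dbi were called. Without 10 Gy replicate 1, Acss2 was called in the other direction, at -0.89 after 10 Gy and at -0.83 in 10 Gy against 2 Gy. The fixed block carries the difference between the 10 Gy arrays over to the other regimens. The cause of the other changes was not tested. Of 990 member values under an alternative, 29 more changed sign with no call on either side. The labels do not say whether arrays of equal replicate number share a culture. Deviations of same-numbered arrays from their regimen means correlated at -0.24 to 0.11. These values cannot decide the question, because with 2 or 3 arrays a regimen the deviations within it offset each other by construction.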
